A study of Mus musculus with 8 samples.

Results

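The collagen genes and the enzymes and chaperone that mature collagen were examined in the ventricles of mouse hearts collected at embryonic day 11.5. All genes on primary chromosomes whose symbol follows the collagen pattern (Col, a type number, the letter a and a chain number) were taken, 44 in all, with 8 maturation genes (P4ha1, P4ha2, P4ha3, Plod1, Plod2, Plod3, Serpinh1 and Lox), which gave 52 of the 52778 listed features. Of the 52, 38 reached 1 TPM in at least 4 of the 8 libraries and were tested. The 8 libraries are 4 controls, with the genotype C57BL/6 WT, and 4 Atf4(del7/del7) mutants, labelled ATF4 global knockout, which carry 7 bases fewer in exon 3 of Atf4, removed with CRISPR/Cas9, which shifts the reading frame and is described as leaving no protein. No drug was given and all samples carry batch 1. The genotype field of the mutants also reads C57BL/6 WT, so the groups were taken from the sample titles. The 4 libraries of each genotype are called biological replicates, but the labels do not say whether each is 1 embryo or a pool, or whether littermates were compared. TPM, the unit used throughout, is transcript abundance corrected for transcript length and scaled to the library total. The listed features did not sum to the same total, with 923473 TPM in mutant replicate 2 and 949762 TPM in mutant replicate 1. These totals were not made equal before the main test. TPM keeps no read depth, so error is measured only by how far the 4 libraries of one genotype lie apart. The p-values refer to that spread after limma, the test used, drew each gene's variance toward a trend over all genes tested.

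Collagens are trimers whose chains carry long runs of a Gly-X-Y repeat. In the endoplasmic reticulum prolyl 4-hydroxylases and lysyl hydroxylases modify the chains, a chaperone holds the folded trimer, and after secretion lysyl oxidase crosslinks it. Fibrillar types give connective tissue its tensile strength, while type IV forms the sheet of the basement membrane under endothelium and around muscle cells. Because collagen is rich in glycine and proline, its synthesis draws on amino acid supply, which ATF4 is known to regulate.

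The genotype and the tissue were checked first. Atf4 transcript held 105 to 121 among controls and 148 to 185 TPM among mutants, with every mutant above every control (limma adjusted p of 0.0430), and transcript level does not report the protein. This call was lost without the filter on low values, without the variance trend, with the replicate block and after quantile normalization. It was also lost after rescaling without mitochondrial and haemoglobin genes, and in 7 of the 8 analyses that left out 1 library (all but mutant replicate 4). Cardiomyocyte markers, 10 of 10 expressed, summed to between 42146 and 43521 among controls and between 41261 and 43571 TPM among mutants. No atrial list was read, so these sums show heart muscle and not the chamber, which was taken from the labels. The extraction text of the labels names cultured cortical neurons, whereas the 6 neuronal markers summed to at most 15.6 TPM in any library and Map2, Elavl3 and Dcx stayed below 1 TPM. Hepatocyte markers summed to at most 4.27 TPM. Cushion mesenchyme and epicardial markers, the cells known to make fibrillar collagen, were all expressed, 10 of 10 in each list. Macrophage markers summed to 13.4 to 24.7 among controls and 8.83 to 13.9 TPM among mutants, with 7 of 8 markers tested and Adgre1 below 1 TPM. Of the 7, 4 were lower in mutants at an unadjusted limma p below 0.05, and the lowest adjusted p was 0.573. In 3 (Cx3cr1, Mrc1 and C1qb) every mutant lay below every control. Of all genes tested, 3.45% and 2.05% did so. Erythroid markers, 8 of 8 expressed, summed to 4546 to 7734 among controls and 4240 to 5868 TPM among mutants. The part of these cells in the collagen values was not tested, and in bulk tissue fewer cells of a type and less RNA per cell cannot be told apart.

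The collagen transcripts of the ventricle were dominated by the basement membrane. The 44 collagen genes together held 1728 to 1944 among controls and 1723 to 2018 TPM among mutants. Over all 8 libraries the 8 basement membrane genes took 52.3% of this sum, the 11 fibrillar genes 36.4% and the remaining 25 genes 11.3%. Col4a1, Col18a1 and Col3a1 alone held 47.3%, and the 10 highest genes held 86.9%. The plot of transcript levels shows that the order of the genes was broadly alike in both genotypes, while some genes close in level changed places. Plod3 and Plod2, for example, averaged 47.7 and 44.1 TPM among controls and 45.5 and 47.6 TPM among mutants.

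**Figure D1:**
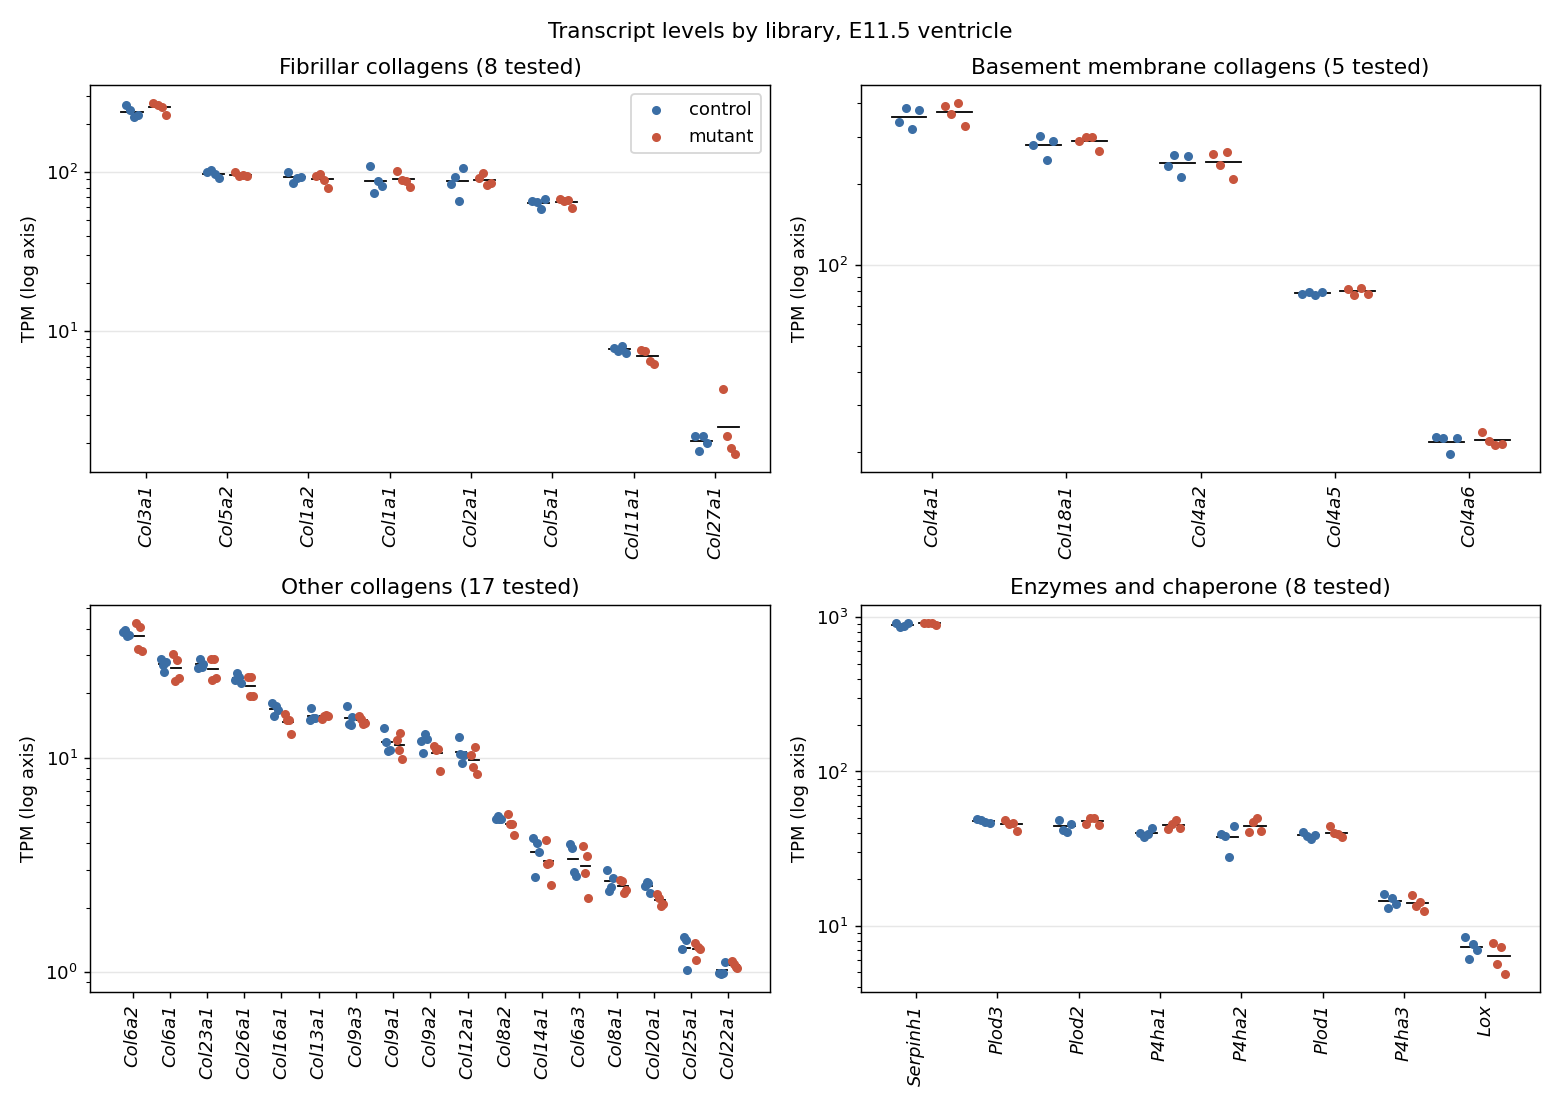
TPM on a log axis for the 38 tested genes in 4 classes; each point is 1 library (4 control, 4 mutant, drawn from replicate 1 to 4) and each short line a group mean. Serpinh1 lies between 858 and 925 TPM and Col4a1 between 321 and 403 TPM, and control and mutant points overlap for all genes but Col20a1.

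Among the basement membrane collagens, Col4a1 and Col4a2 encode the chains of the ubiquitous type IV trimer. Col4a1 (chromosome 8, bases 11198423 to 11312889, minus strand) held 342, 384, 321 and 378 among controls and 392, 366, 403 and 329 TPM among mutants. Col4a2 (chromosome 8, bases 11312805 to 11449287, plus strand) held 234, 256, 212 and 255 among controls and 259, 236, 263 and 208 TPM among mutants. For both genes the groups overlapped, with control replicate 3 and mutant replicate 4 at the low end of each group. The log2 fold change, mutant minus control, was 0.063 for Col4a1 (95% interval -0.11 to 0.23) and 0.014 for Col4a2 (-0.17 to 0.20), both with a limma adjusted p of at least 0.942. The sign of Col4a2 turned when 1 library was left out, to -0.042 without control replicate 3, -0.021 without mutant replicate 1 and -0.028 without mutant replicate 3.

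Their genes lie head to head and the listed spans share 85 bases at their 5′ ends. The TPM ratio of Col4a1 to Col4a2 ranged from 1.46 to 1.58 over the 8 libraries. Its coefficient of variation was 2.42%, against 8.36% for Col4a1 and 8.94% for Col4a2 alone, so the levels of both chains moved together from library to library. Among all 703 pairs of tested genes this was the smallest variation of a ratio, where the median pair had 11.2%, a comparison chosen after the values were seen. Next came Col4a5 and Serpinh1, on chromosomes X and 7, with 2.95%. Col4a5 and Col4a6, which also lie head to head, had 5.29%, rank 36. The ratio of Col4a1 to Col4a2 was 1.462, 1.501, 1.517 and 1.484 among controls and 1.51, 1.55, 1.53 and 1.58 among mutants, and the lowest mutant value lay below the highest control value. The plot of partner chains sets this pair beside the chains of type I. In the RefSeq promoter windows of GRCm38.p6, 250 bases before to 50 after the start, each of the 2 genes has a match to CCAAT. Such a match occurs in 32.3% of the windows of tested members, with Lox left out, and in 37.4% of all windows. Its part in the shared levels was not tested. The sites are shown with the motif, or its reverse complement, in capitals; each falls in an untranslated exon part of the other gene in the GENCODE annotation.
Col4a1 site (chr8:11312955-11312983, minus strand): tgcttgcccgggATTGGcgagccaagggg
Col4a2 site (chr8:11312761-11312789, plus strand): ccgaggagctccCCAATttgttggcgctg

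**Figure D2:**
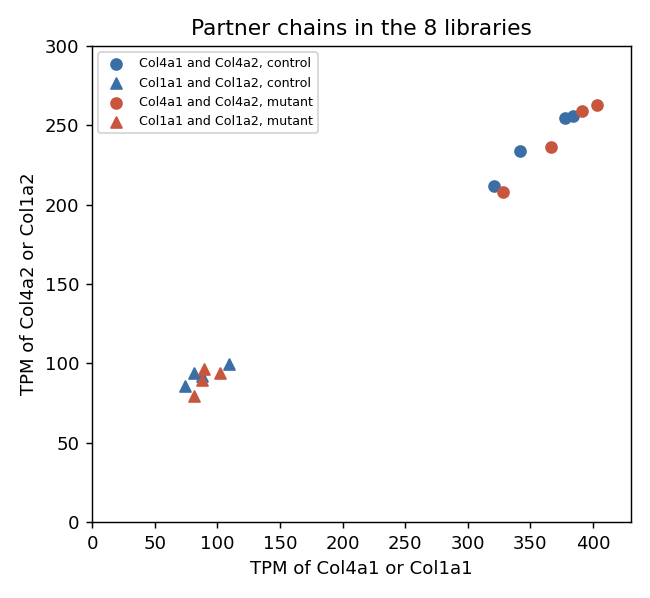
TPM of Col4a2 against Col4a1 (circles) and of Col1a2 against Col1a1 (triangles), 1 point per library, blue for control and red for mutant. The type IV points lie along 1 line, with a ratio between 1.46 and 1.58, while the ratio of Col1a1 to Col1a2 ranges from 0.866 to 1.09.

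The other type IV chains were unequal in level. Col4a5 (chromosome X) held 77.3 to 79.5 among controls and 77.4 to 81.9 TPM among mutants, and was the steadiest collagen, with a 95% interval of its log2 fold change of -0.055 to 0.090. Its head-to-head neighbour Col4a6, whose chain assembles with that of Col4a5, held 22.8, 22.5, 19.7 and 22.6 among controls and 23.8, 22.1, 21.3 and 21.4 TPM among mutants. Col4a5 was thus 3.42 to 3.93 times as high as Col4a6, although 1274 bases separate them. Col4a3 and Col4a4, the chains typical of mature kidney and lung membranes and another head-to-head pair, stayed below 0.5 TPM in every library. Col18a1, the type XVIII chain that carries endostatin, held 279, 301, 247 and 291 among controls and 290, 300, 301 and 265 TPM among mutants, while its relative Col15a1 reached at most 0.625 TPM. The log2 fold change of Col18a1 was 0.051 (95% interval -0.095 to 0.20), and -0.0074 without control replicate 3. All 5 tested basement membrane genes had small positive differences, from 0.014 to 0.063, with a median of 0.017 against -0.0033 over all 15545 genes tested. That median turned to -0.0074 without control replicate 3, where 2 differences were above and 3 below 0. It was 0.0068 without mutant replicate 1 and 0.084 without mutant replicate 4.

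Among the fibrillar collagens, type III led. Col3a1, the chain of the compliant homotrimer of embryonic and vascular tissue (chromosome 1, bases 45311538 to 45349706), held 262, 246, 222 and 229 among controls and 274, 262, 257 and 228 TPM among mutants. Mutant replicate 4 lay among the lower controls and the groups overlapped. The log2 difference reached 0.089, standard error 0.066 (limma, unadjusted p of 0.209, adjusted p of 0.903). Its level was 2.40 to 3.31 times that of Col1a1.

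The chains of type I, the main collagen of skin and bone, followed at a lower level. Col1a1 (chromosome 11) held 109, 74.4, 88.1 and 81.5 among controls and 102, 89.2, 87.9 and 81.2 TPM among mutants. Col1a2 (chromosome 6) held 99.9, 85.8, 91.9 and 93.7 among controls and 94.1, 96.8, 89.6 and 79.8 TPM among mutants. The type I trimer is built from more chains of Col1a1 than of Col1a2, yet the transcripts were near parity: the ratio averaged 0.947 ± 0.107 among controls and 1.00 ± 0.0681 among mutants (SD, n = 4), no farther apart than the replicates. Log2 fold changes were 0.038 for Col1a1 (95% interval -0.21 to 0.29) and -0.045 for Col1a2 (-0.19 to 0.10). Without control replicate 2 that of Col1a1 was -0.038, without mutant replicate 1 it was -0.023, and without mutant replicate 4 that of Col1a2 was 0.011. The promoter window of Col1a2 holds 2 matches to CCAAT, in capitals here, both in an untranslated exon part of Col1a2 itself in GENCODE.
Col1a2 site (chr6:4505497-4505525, plus strand): aaaagaatggaaCCAATttaagaagcccc
Col1a2 site (chr6:4505606-4505634, plus strand): cctagccctcccATTGGtggagacgtttt

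Type V chains, which set the diameter of type I fibrils, were among the less variable genes. Col5a2 held 91.9 to 103 among controls and 94.1 to 99.8 TPM among mutants, and Col5a1 58.7 to 67.9 TPM and 59.4 to 67.8 TPM. Col2a1, known from cartilage and also made by cushion mesenchyme, held 84.7, 93.6, 66.3 and 107 among controls and 91.7, 98.4, 83.5 and 84.9 TPM among mutants, so the controls alone covered the whole range of the mutants. Its log2 fold change of 0.047 became -0.080 without control replicate 3. Col5a2, Col1a2, Col1a1 and Col2a1 overlapped each other in level and have no firm order. Cartilage markers were mostly low: Matn1, Cnmd and Ucma stayed below 1 TPM, and of the 117 to 159 TPM to which the 7 markers summed, Hapln1, which cushion tissue also expresses, held 113 to 156 TPM.

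The lower fibrillar genes were Col11a1 and Col27a1. Col11a1, a minor chain of cartilage-type fibrils, held 7.35 to 8.12 among controls and 6.26 to 7.67 TPM among mutants, a log2 fold change of -0.13 (95% interval -0.30 to 0.046). Col27a1 held 1.77 to 2.22 among controls and 4.325, 2.199, 1.850 and 1.691 TPM among mutants. Its log2 fold change of 0.15 rested on mutant replicate 1 and was -0.065 without that library. Col5a3, Col11a2 and Col24a1 were below 1 TPM in every library. Over the 8 tested fibrillar genes 5 differences were above and 3 below 0, with a median of 0.026 that turned to -0.029 without control replicate 3 (3 above and 5 below) and to -0.033 without mutant replicate 1 (2 above and 6 below). It was 0.0076 without control replicate 2, 0.0044 without mutant replicate 2 and 0.063 without mutant replicate 4.

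The remaining collagens include the beaded filament chains of type VI, the transmembrane collagens and the types that decorate fibrils. Type VI forms microfilaments around cells. Col6a2 held 38.7, 39.5, 37.0 and 37.4 among controls and 42.7, 32.2, 40.8 and 31.4 TPM among mutants. Col6a1 held 28.8, 26.9, 25.0 and 28.1 among controls and 30.5, 22.8, 28.4 and 23.4 TPM among mutants. In both genes mutant replicates 1 and 3 lay near or above the highest control and mutant replicates 2 and 4 below the lowest. The ratio of Col6a1 to Col6a2, neighbours on chromosome 10 with 85161 bases between them, was 0.713 ± 0.0402 among controls and 0.716 ± 0.0206 among mutants (SD, n = 4). Col6a3, which supplies the third chain of the trimer, was lower by far, at 2.23 to 3.97 TPM over all libraries, so that Col6a2 was 9.74 to 14.1 times as high. Col6a4, Col6a5 and Col6a6 stayed below 1 TPM.

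The transmembrane collagens Col23a1 and Col13a1 and the secreted Col26a1 were also present. Col23a1 held 26.3 to 28.9 among controls and 28.7, 23.1, 28.9 and 23.4 TPM among mutants, and Col26a1 22.4 to 24.9 TPM and 23.7, 19.3, 23.7 and 19.3 TPM. These 2 genes thus repeated the split of type VI, with mutant replicates 2 and 4 low. Col13a1, which clusters acetylcholine receptors at the neuromuscular junction, held 15.0 to 17.1 among controls and 15.2 to 15.9 TPM among mutants (log2 fold change -0.0078, 95% interval -0.13 to 0.11, and 0.0055 after quantile normalization). Col25a1, at 1.02 to 1.46 TPM, was the lowest transmembrane collagen tested, and Col17a1 stayed below 0.3 TPM.

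Several collagens sit on the surface of fibrils. Col16a1 (chromosome 4, bases 130047817 to 130099277) held 17.9, 15.6, 17.3 and 16.8 among controls and 15.95, 14.98, 15.03 and 12.92 TPM among mutants. All mutants but replicate 1 lay below every control. The log2 difference reached -0.19, standard error 0.071, with an unadjusted p of 0.0248, but the limma adjusted p was 0.800. The unadjusted p was 0.0687 without control replicate 1, 0.0556 without control replicate 3 and 0.0598 without mutant replicate 4.

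Col20a1 (chromosome 2, bases 180983323 to 181017545) held 2.54, 2.64, 2.61 and 2.33 among controls and 2.33, 2.22, 2.03 and 2.09 TPM among mutants. It was the only tested member whose groups did not overlap, by a margin too small to show at this rounding for control replicate 4 and mutant replicate 1. The log2 difference was -0.16 (p of 0.0902 unadjusted and 0.843 adjusted by limma), and the groups overlapped after quantile normalization. Its residual SD was 0.059, against a median of 0.103 over all genes tested, and its standard error of 0.083 includes the variance trend. Over the 16 alternatives run, its unadjusted limma p lay between 0.0126 and 0.205. Among all genes tested 2.05% had every mutant below every control, so 1 of 38 members, or 2.63%, is close to that background. No member had every mutant above every control, against 1.63% of all genes, so that 1 member separated in either direction against 3.68%.

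Type IX chains, which cover type II fibrils, lay between 8.63 and 17.5 TPM. Col9a3 held 14.1 to 17.5 among controls and 14.3 to 15.6 TPM among mutants, and Col9a1 10.7 to 13.7 TPM and 9.887 to 12.98 TPM. Col9a2 held 11.9, 10.5, 12.9 and 12.2 among controls and 11.37, 10.87, 11.03 and 8.633 TPM among mutants, a log2 fold change of -0.17 that was -0.088 without mutant replicate 4. Col12a1 and Col14a1, which bind type I fibrils, had log2 fold changes of -0.11 and -0.12, with 95% intervals of -0.34 to 0.12 and -0.43 to 0.19. Leaving out 1 library moved Col12a1 to -0.037 (control replicate 1), -0.047 (mutant replicate 4) or -0.17 (mutant replicate 3), and Col14a1 to -0.035 (mutant replicate 4), -0.064 (control replicate 1), -0.22 (control replicate 2) or -0.21 (mutant replicate 1). The short-chain collagens of vessel walls and valves, Col8a1 and Col8a2, stayed between 2.34 and 5.48 TPM. Col22a1 sat at the edge of the filter, at 0.979 to 1.13 TPM, and Col7a1, the anchoring fibril chain, lay outside it at 0.745 to 1.08 TPM.

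In this class 16 of the 17 tested genes had a negative difference, or 14 of 17 after quantile normalization, against 8055 of the 15545 genes tested, and the median log2 fold change was -0.072. The genes share libraries and are not independent. The count moved to 13 of 17 and the median to -0.026 without mutant replicate 4, and the median to -0.037 without control replicate 1. It moved the other way, to -0.129 without mutant replicate 1 and -0.116 without mutant replicate 3. As a sum the class held 220 ± 6.35 among controls and 208 ± 21.5 TPM among mutants (SD, n = 4). The mutants were 229, 194, 222 and 185 TPM, so mutant replicates 1 and 3 lay inside or above the control range of 214 to 229 TPM and mutant replicates 2 and 4 below it.

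The 14 members that were not tested ranged from 0 to 1.08 TPM. They were Col5a3, Col11a2, Col24a1, Col4a3, Col4a4, Col15a1, Col6a4, Col6a5, Col6a6, Col7a1, Col10a1, Col17a1, Col19a1 and Col28a1. In 6 of them every library was below 0.1 TPM, among them Col10a1, the collagen of hypertrophic cartilage, which lies wholly within Nt5dc1 on the opposite strand.

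Serpinh1, the collagen-specific chaperone of the endoplasmic reticulum (chromosome 7, bases 99345375 to 99353239, minus strand), was the highest member. It held 916, 858, 875 and 923 among controls and 923, 922, 925 and 887 TPM among mutants, rank 120 of the 15545 genes tested by mean TPM. It was 2.23 to 2.72 times as high as Col4a1. The groups overlapped and the 95% interval of the log2 fold change was -0.043 to 0.11, among the narrowest of the members.

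The alpha subunits of prolyl 4-hydroxylase bind the chain and carry the active site, and their hydroxyprolines stabilise the triple helix. P4ha1 (chromosome 10, bases 59323197 to 59373304) held 40.1, 37.7, 39.6 and 42.8 among controls and 42.3, 46.0, 48.7 and 42.9 TPM among mutants. All mutants but replicate 1 lay above every control. The log2 difference reached 0.16, standard error 0.056, with an unadjusted p of 0.0165, but the limma adjusted p was 0.780. It was the only member with an unadjusted p below 0.05 in the positive direction, or 2.63% of 38, and Col16a1 was the only one in the negative direction, while 2.65% and 3.45% of all genes tested reached that level.

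P4ha2 (chromosome 11, bases 54100924 to 54131668) held 39.5, 38.4, 27.9 and 44.0 among controls and 40.46, 46.70, 49.95 and 41.33 TPM among mutants. Only control replicate 4 lay above any mutant. Its log2 fold change of 0.26 was the largest of the 38 (95% interval -0.026 to 0.55, unadjusted p of 0.0697, adjusted p of 0.841). Without control replicate 3, the lowest library, it was 0.13, and without control replicate 4 it was 0.34 with an unadjusted p of 0.0236. P4ha3 was lower than both, at 12.98 to 16.01 among controls and 12.4 to 15.9 TPM among mutants, and its log2 fold change of -0.043 was 0.0048 without control replicate 1 and 0.0082 without mutant replicate 4.

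The promoters of these genes are shown because P4ha1 and P4ha2 had the largest positive differences and prolyl hydroxylase genes are known to respond to hypoxia. This choice was made after the values were seen, neither gene passed the adjusted threshold, and a response to hypoxia was not tested. The core of the hypoxia element, ACGTG on either strand, is in capitals. It occurs in 6 of the 31 promoter windows of the 28 tested members found in the RefSeq table, or 19.4%, and in 19.6% of all 32851 windows. The 6 windows belong to Col1a2, Col5a1, P4ha1, P4ha2, Plod3 and Serpinh1. The P4ha2 window has a further match at base 11 from the start, after the printed stretch, and the P4ha3 window has none. The composite C/EBP and ATF element TGATGNAA was in 0 of the 31 windows and in 3.97% of all, and CCAAT was in 10 of the 31, or 32.3%, and in 37.4% of all. A match describes the letters and is not a binding site. The P4ha1 site lies in an untranslated exon part of the gene, the P4ha2 stretch in the span of a longer GENCODE transcript and outside its exons, and the Serpinh1 stretch outside any GENCODE gene.
P4ha1 site (chr10:59323268-59323296, plus strand): tgtgacagagcgCACGTagcgagggctgc
P4ha2 upstream (chr11:54100674-54100923, plus strand): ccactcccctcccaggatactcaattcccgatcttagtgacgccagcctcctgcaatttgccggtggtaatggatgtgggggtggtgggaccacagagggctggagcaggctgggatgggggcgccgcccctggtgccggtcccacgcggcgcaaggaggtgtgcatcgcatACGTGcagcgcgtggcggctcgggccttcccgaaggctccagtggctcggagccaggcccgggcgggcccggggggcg
Serpinh1 upstream (chr7:99353240-99353489, minus strand): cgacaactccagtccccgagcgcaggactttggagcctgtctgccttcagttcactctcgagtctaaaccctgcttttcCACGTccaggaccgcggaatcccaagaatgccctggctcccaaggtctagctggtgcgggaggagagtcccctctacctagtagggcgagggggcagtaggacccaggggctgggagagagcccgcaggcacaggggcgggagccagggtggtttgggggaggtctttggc

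Lysyl hydroxylases prepare lysines for crosslinks and for sugar attachment. Plod2, which acts on the telopeptides, held 48.7, 41.6, 40.5 and 45.7 among controls and 45.93, 49.90, 49.96 and 44.66 TPM among mutants, a log2 fold change of 0.11 (95% interval -0.036 to 0.26). Plod1 held 36.7 to 40.2 among controls and 37.4 to 44.1 TPM among mutants (0.057, -0.065 to 0.18). Plod3, which also transfers sugars to hydroxylysine, held 46.6 to 49.2 among controls and 48.4, 45.7, 46.4 and 41.3 TPM among mutants (-0.070, -0.18 to 0.042). For all 3 genes the groups overlapped. Plod3 shares 941 bases with Znhit1 on the opposite strand, which held 46.1 TPM on average, and the strand setting of the counting is not given in the sources used here. Lox, the secreted oxidase that starts crosslinking, was the lowest enzyme, at 8.49, 6.04, 7.57 and 6.91 among controls and 7.68, 5.67, 7.22 and 4.84 TPM among mutants. Its log2 fold change of -0.18 had an interval of -0.49 to 0.14.

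**Figure D3:**
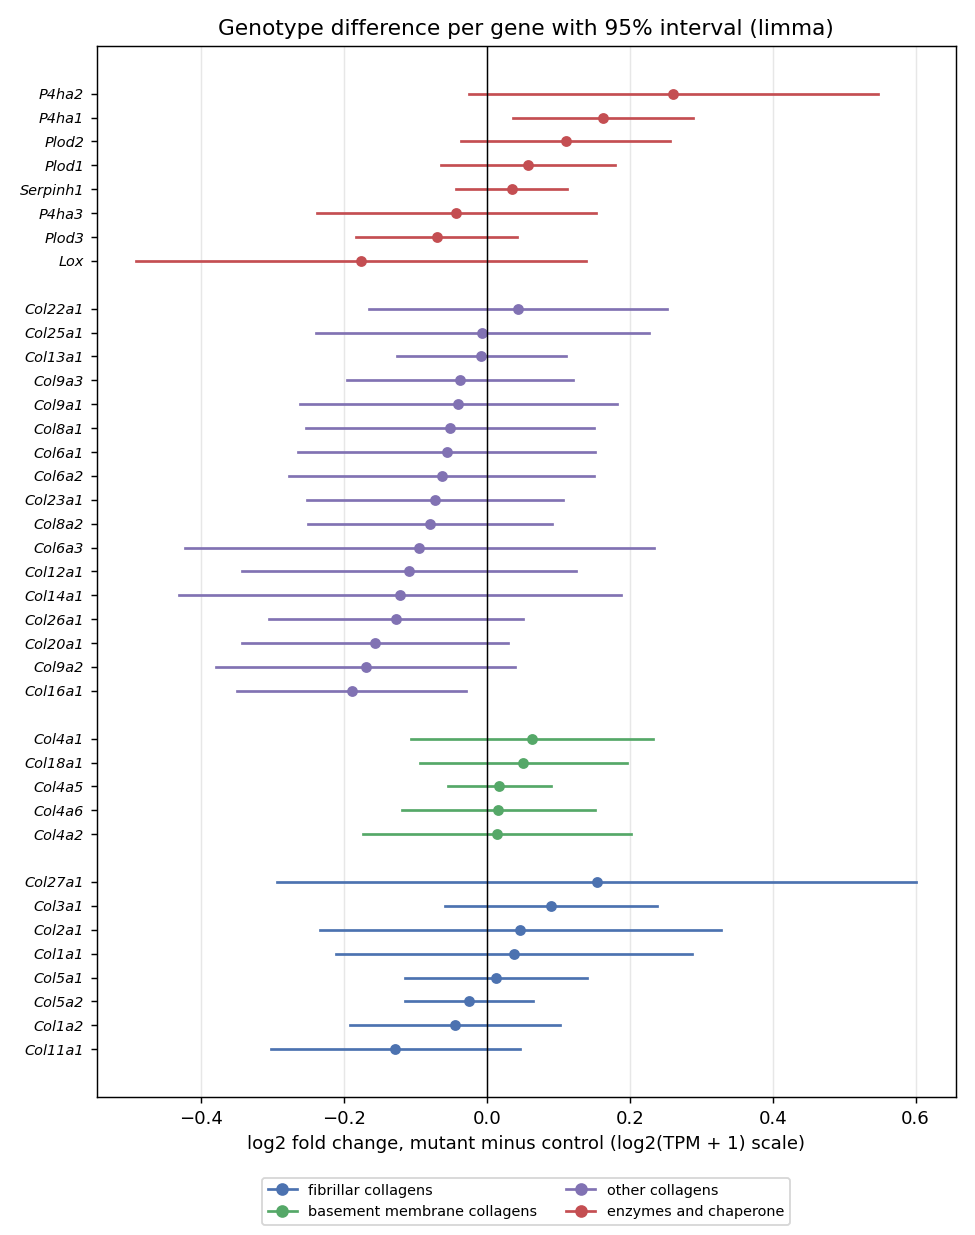
Log2 fold change of each of the 38 tested genes (point) with its 95% interval from limma (line), mutant minus control, ordered within class and coloured by class. The intervals of 36 genes include 0; those of P4ha1 and Col16a1 do not before adjustment for the 15545 genes tested.

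No collagen gene or maturation gene passed the adjusted threshold between the genotypes. Of the 38 members 0 had an adjusted p below 0.05 in limma, 0.0386% of all genes tested did (0.00643% higher and 0.0322% lower in the mutants), and 2 members had an unadjusted p below 0.05, against 6.1% of all genes. The lowest adjusted p of any member over the 17 alternative analyses was 0.640. The differences were above 0 in 16 members, or 42.1%, against 48.2% of all genes, and below 0 in 22, and 37 of the 38 were smaller than 0.2 in size on the log2 scale. The median half-width of the 95% intervals was 0.18, and 36 of the 38 intervals lay wholly between -0.5 and 0.5. Differences smaller than these half-widths could not be told from 0 with 4 libraries a group, even before adjustment. The intervals are not adjusted for the number of genes tested. P4ha1 and Col16a1 exceeded their half-widths and still missed the adjusted threshold, so passing it took a larger difference than the half-width.

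**Figure D4:**
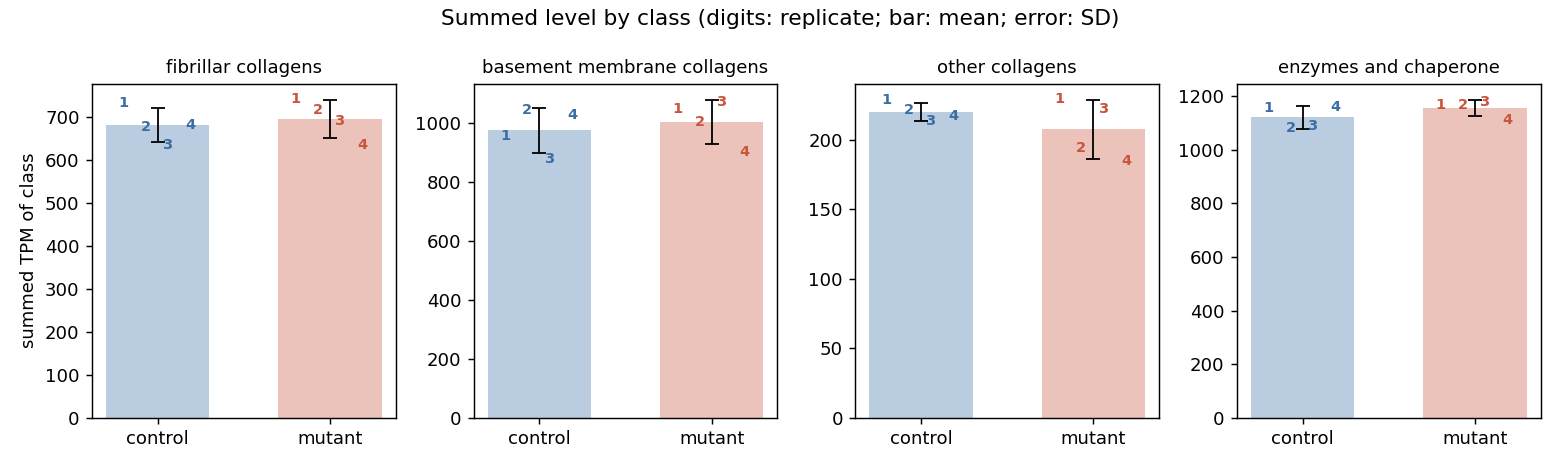
Summed TPM of all genes of each class; bars are means, error bars SD over 4 libraries, and digits mark the replicates. The libraries of both groups overlap in every class; control replicate 3 is the lowest in the fibrillar and basement membrane classes and mutant replicate 4 in the other collagens.

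As sums, the fibrillar genes held 682 ± 39.9 among controls and 697 ± 45.1 TPM among mutants, and the basement membrane genes 976 ± 75.6 and 1006 ± 74.9 TPM (SD, n = 4). The 8 maturation genes held 1122 ± 43.3 and 1157 ± 30.8 TPM. No class sum separated the genotypes: in each, the libraries of the groups overlapped.

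Single libraries stood apart across many members. Mutant replicate 4 was the lowest of the 8 libraries in 16 of the 38 members and the highest in 0, and over all genes tested it was the lowest in 19.7%. Control replicate 3 was the lowest in 11 members and in 19.1% of all genes. Control replicate 1 was the highest in 12 members and in 15.6% of all genes. Mutant replicate 1 was the highest in 8 members, a share near its 20.5% of all genes. The median deviation of the 38 members from their mean over the libraries was -0.13 in mutant replicate 4, where that of all genes was -0.023, and it was 0.057 in mutant replicate 1, against 0.036 for all genes. Mutant replicate 4 also had the lowest summed epicardial markers of the 8 libraries, at 334 TPM against 337 to 380 TPM, and the lowest endothelial markers, at 843 TPM against 871 to 980 TPM. Its cardiomyocyte markers summed to 43571 TPM, against 41261 to 43521 TPM in the others. Its cushion mesenchyme markers, at 178 TPM, lay within the 157 to 187 TPM of the others. The same held for its smooth muscle markers, at 1793 TPM against 1636 to 1872 TPM. The part of these cells in its low collagen values was not tested.

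**Figure D5:**
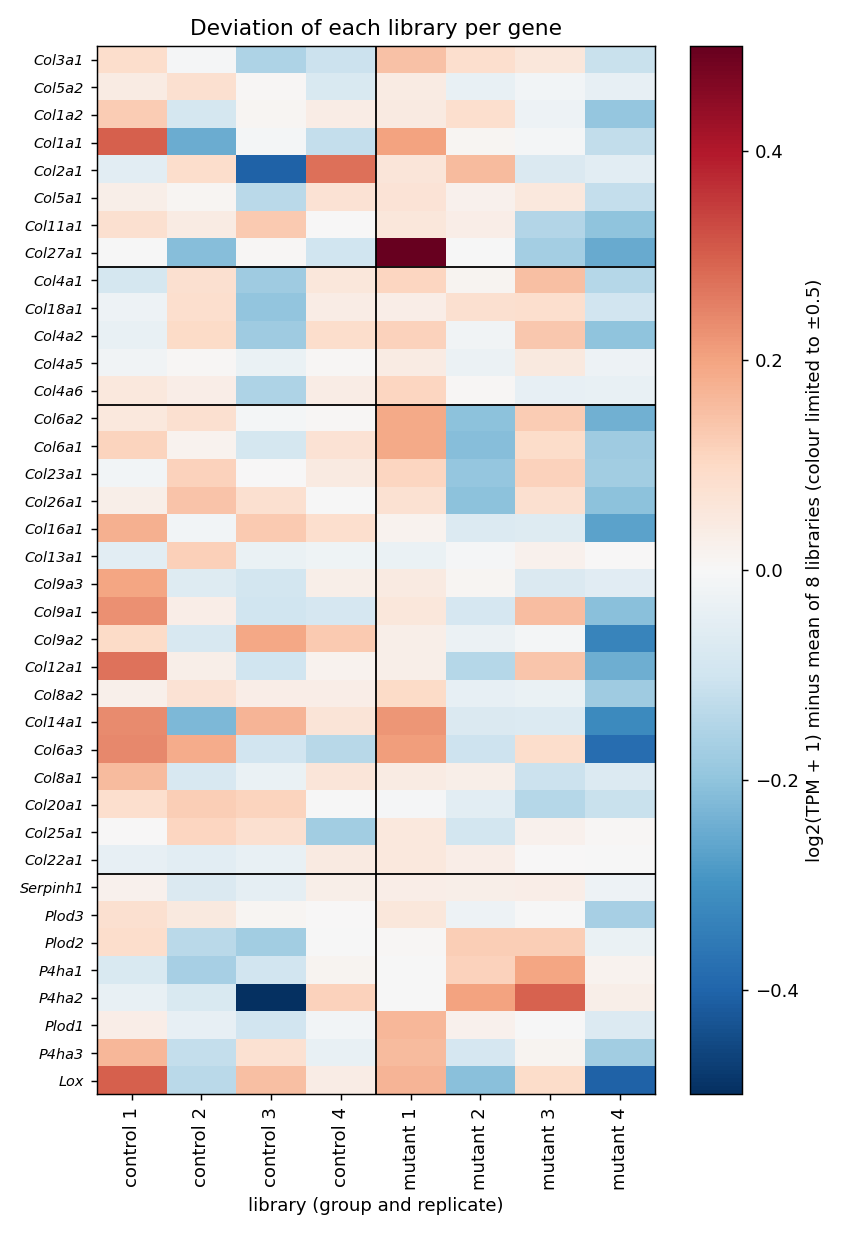
Deviation of log2(TPM + 1) from the mean of the 8 libraries for each of the 38 tested genes (rows, by class: fibrillar, basement membrane, other collagens, enzymes and chaperone) in each library (columns), with colours limited to ±0.5. Mutant replicate 4 is blue in most rows, and control replicate 3 is blue in the basement membrane rows and in P4ha2 and Col2a1.

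The list of other genes in collagen biosynthesis was read in the same fit. Of the 10 further endoplasmic reticulum genes, among them P4hb, the shared beta subunit of prolyl 4-hydroxylase, 0 had an unadjusted p below 0.05, and P4hb held 349 ± 19 among controls and 369 ± 14.8 TPM among mutants (log2 fold change 0.078, unadjusted p of 0.117, limma adjusted p of 0.858). None of the 9 secretion genes reached an unadjusted p of 0.05, a count of 0, nor did any of the 8 tested genes of propeptide processing and crosslinking, where Loxl2 was the highest at 104 and 111 TPM. The count was also 0 for the 22 matrix partners, led by Sparc and Fn1, the 8 tested turnover genes and the 11 TGF-beta and CCN genes. Of the 7 tested receptors 1 had an unadjusted p below 0.05: Ddr2, a receptor tyrosine kinase for fibrillar collagen, held 2.77, 2.29, 1.94 and 2.62 among controls and 2.12, 1.58, 2.04 and 1.30 TPM among mutants (log2 fold change -0.31, p of 0.0418 unadjusted and 0.809 adjusted by limma). An unadjusted limma p below 0.05 was reached by 6.1% of all genes tested, and by 3.45% in the lower direction. Itgb1, the beta subunit of the collagen-binding integrins, was the highest receptor at 417 and 411 TPM.

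The genes that supply glycine and proline were read last. Of 13 tested genes 11 had negative differences, 5 had an unadjusted p below 0.05 in that direction, and 1 fell at the adjusted threshold: Phgdh, the first enzyme of serine and glycine synthesis (log2 fold change -0.46, limma adjusted p of 0.00883). Of all 15545 genes tested, 8055 had negative differences, 3.45% had an unadjusted p below 0.05 in that direction and 0.0322% were called lower. Phgdh held 58.5, 62.5, 62.5 and 61.3 among controls and 46.1, 45.4, 42.5 and 42.4 TPM among mutants. With 0 genes called lower, its call was lost without the filter on low values, without the variance trend and with the replicate block. The same held when control replicate 2, 3 or 4 was left out. Aldh18a1, which makes the precursor of proline, held 45.2, 46.9, 40.5 and 43.5 among controls and 36.7, 33.7, 36.2 and 33.8 TPM among mutants, a log2 fold change of -0.32 (p of 0.000176 unadjusted and 0.305 adjusted by limma). Pycr1, the mitochondrial enzyme of the last step to proline, held 10.4, 12.8, 12.8 and 11.5 TPM and 9.82, 7.42, 9.31 and 7.97 TPM, a log2 fold change of -0.42 (p of 0.00190 unadjusted and 0.645 adjusted by limma). In both genes every mutant lay below every control. Slc6a9 had the largest log2 fold change of the list, -0.60 (p of 0.0256 unadjusted and 0.800 adjusted by limma). It held 4.85 ± 0.170 among controls and 3.05 ± 1.28 TPM among mutants, and the groups did not overlap. Psat1 had a log2 fold change of -0.16 (p of 0.0214 unadjusted and 0.800 adjusted by limma), and its groups overlapped.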

How the data were processed

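Gene-level RNA abundance was measured by RNA-seq in 8 ventricular heart samples, and the authors deposited 1 table of TPM values per gene and library. FastQC, Trim Galore 0.6.7, HISAT2 2.2.1, StringTie 2.2.1, featureCounts and DESeq2, with GRCm38/mm10, are named in the submitters' processing notes without their roles. The labels' protocols conflict: the series text gives TRIzol and a stranded mRNA kit, the sample text a column kit and cultured cortical neurons. TPM keeps no read depth, so no count model was used and no depth can be given.

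Testing was limited to genes that reached 1 TPM in 4 or more of the 8 libraries and was done on log2(TPM + 1) with limma 3.58.1 in R 4.3.3 (empirical Bayes with a variance trend, 2-sided, Benjamini-Hochberg adjustment over all 15545 genes). A log2 fold change on this scale understates the change of low genes. The script was checked on simulated data. Values after ± are SD. Genes described by name are the members, all of which were accounted for, and, of the other pathway lists, those past an unadjusted p of 0.05, at the highest level or otherwise chosen after their values were seen. Cell type markers are given mainly as sums, and not every marker past an unadjusted p of 0.05 is named. Members and lists were chosen with earlier results of these data known. Alternatives were another pseudocount, filters, scalings, the variance trend, library weights, a replicate block and each library left out. The replicate numbers did not pair the libraries. Positions match RefSeq GRCm38.p6 for all 52 members, promoter windows are RefSeq's, and protein sequences were not analysed here.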

Additional observations from a re-analysis of the deposited data

Results flagged for a closer look

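In 5 of 114 groups of 4 libraries 1 library lay far from the other 3, a gap over Dixon's 95% critical value, and chance alone gives about 5.7. Control replicate 3 was low for Col4a6, at 19.663 TPM against 22.543 to 22.838 TPM. Mutant replicate 4 was low for Serpinh1, at 887.094 TPM against 922.018 to 924.578 TPM. Control replicate 2 was high for Col8a2, at 5.381 TPM against 5.169 to 5.204 TPM, and control replicate 4 for Col22a1, at 1.119 TPM against 0.979 to 0.998 TPM. The endocardial and endothelial markers summed to 979.762 TPM in control replicate 2, against 871.463 to 886.63 TPM in the other controls.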

How the results depend on the processing

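Of the 38 tested members 18 kept the direction of their difference in all 17 alternatives, and 4 more (Col14a1, Col8a1, Col20a1 and Col22a1) in the 16 run for them, since the 5 TPM filter drops them. Of these 22, 19 moved by more than 1.5 times when some library was left out. In limma 0 members passed the adjusted threshold in any alternative run (lowest adjusted p 0.640). Over all genes, 1 higher and 5 lower calls became 0 and 0 without a filter, without the variance trend and with the replicate block, and the higher call also became 0 after quantile normalization and after rescaling without mitochondrial and haemoglobin genes. Members with every mutant below every control numbered 0 with the 5 TPM filter and after quantile normalization, and 2 after median-of-ratios scaling and after that rescaling. Members at an unadjusted p below 0.05 in the lower direction numbered 2 without the variance trend. Quantile normalization turned Col13a1 to 0.0055 and Col25a1 to 0.032.

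Leaving out 1 library gave 0 to 1 higher and 0 to 3 lower calls over all genes, 1 to 2 members higher and 0 to 2 lower at an unadjusted p below 0.05, and 0 to 3 members higher and 1 to 4 lower without overlap. It turned the sign of 16 members at least once, with log2 fold changes from -0.10 to 0.0082 for P4ha3, -0.075 to 0.022 for Col9a3, -0.098 to 0.029 for Col9a1, -0.038 to 0.14 for Col1a1, -0.027 to 0.031 for Col13a1, -0.066 to 0.028 for Col25a1, -0.0074 to 0.091 for Col18a1, -0.042 to 0.084 for Col4a2, -0.033 to 0.036 for Col4a6, -0.080 to 0.15 for Col2a1, -0.030 to 0.054 for Col5a1, -0.065 to 0.26 for Col27a1, -0.13 to 0.0051 for Col6a1, -0.082 to 0.011 for Col1a2, -0.14 to 0.0052 for Col6a2 and -0.18 to 0.017 for Col6a3. The cause was not tested. Libraries of the same number deviated together with correlations from -0.082 to 0.035, so the block has no basis in the data; it gave an unadjusted p of 0.0381 for P4ha1 and 0.0269 for Col16a1. Depth is unknown.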
